A study of Mus musculus with 3 samples.

Results

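TM4 is a group of stromal cells of the mouse iridocorneal angle marked by a high level of the myocilin gene *Myoc*. Its cells are those that the authors kept after quality control and labelled TM4 when they divided the meshwork and cells close to it into the 11 labels TM1 to TM11, of which they read TM1 as keratinocytes and TM2 as corneal endothelium. Of 26008 kept cells, 927 carried the label: 286 came from the first control library (control replicate 1), 330 from the other (control replicate 2) and 311 from the knockout library. The study dissociated the limbus and iridocorneal angle of mice aged 6 weeks and counted RNA molecules in single cells by droplet sequencing. Both control libraries came from *Angpt1* flox/flox mice without Cre, and the single knockout library came from *Angpt1* flox/flox mice that also carried *Wnt1*-Cre (*Angpt1*ΔNC), so all mice carried the floxed alleles. The labels give the strain as mixed, and the methods describe crosses onto the ICR strain for albino animals. Eyes of 2 to 3 mice were pooled in each library, so replication is by library, and there is no repeat of the *Angpt1*ΔNC library. *Wnt1*-Cre recombines in the neural crest lineage and therefore deletes *Angpt1* in many cell types besides TM4. Sequenced tags cover part of a transcript and may fall outside the excised exon, so the counts alone do not show the excision.

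The trabecular meshwork is a filter of extracellular matrix beams and stromal cells through which aqueous humor leaves the eye toward Schlemm's canal. Its cells build and degrade matrix, respond to stretch and secrete large amounts of protein, among them myocilin, whose mutant forms cause an inherited glaucoma. Angiopoietin 1, the product of *Angpt1*, is a ligand of the receptor TEK on the endothelium of Schlemm's canal, so stromal cells next to the canal are a source of a signal for its growth.

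Summed over its cells, TM4 held 2456082 and 2966082 unique molecular identifiers (UMIs) in control replicates 1 and 2, and 2912976 in *Angpt1*ΔNC. A TM4 cell had a median of 8341, 8884 and 9225 UMIs in the same order, and all further sets of 3 values follow it. Mitochondrial transcripts took a median of 3.50, 4.48 and 5.01% of a cell's UMIs. No cell barcode was shared between the TM4 cells of any pair of libraries, although 25, 14 and 13 barcodes were shared among all kept cells of the 3 pairs. The pools were described as mixed in sex, and the TM4 counts differ from that description in the controls. *Xist*, the transcript of the inactive X chromosome, gave 0, 1 and 1087 UMIs. By Y-linked and *Xist* UMIs, 187, 256 and 125 TM4 cells were typed male and 0, 0 and 143 were typed female. Among the 187 and 256 control cells that could be typed to 1 sex, counts of 0 allow female shares of up to 1.60 and 1.17%, and other cells could not be typed. Genotype, sex composition, dissection and strain background therefore cannot be told apart in the comparison of genotypes. Where male-typed cells alone change the call of a gene named here, this is stated. For *Sema3e*, *Il33* and *Ccl11* it is stated without the value, so whether their change itself was smaller is not shown.

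The genes that name the label were at their highest in TM4. *Myoc* had a mean of 62.8, 59.4 and 23.2 UMIs per 10,000 UMIs of a cell (SD over cells 65.8, 59.8 and 37.5). *Chil1*, a secreted chitinase-like protein, had 51.3, 56.0 and 27.9 (SD 64.9, 72.9 and 54.3), and *Chad*, the collagen-binding protein chondroadherin, had 11.4, 12.2 and 6.70 (SD 13.1, 13.1 and 9.51). *Nell2*, a secreted protein with EGF-like repeats, was far sparser, at 1.69, 1.22 and 0.879 (SD 2.16, 1.78 and 1.52). Each of the 4 genes was higher in TM4 than in every other label in each of the 3 libraries. *Myoc* was found in 87.4, 91.5 and 74.3% of TM4 cells. Limbal and corneal epithelium, which should lack *Myoc* and was deeper with medians of 17717, 15168.5 and 15135 UMIs, was positive in 2.33, 3.56 and 1.21% of cells, a share taken as the background for *Myoc*, since free RNA was not measured apart. These 4 genes were among those the clusters were made from, so their height describes the label and no test was made of it.

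**Figure D1:**
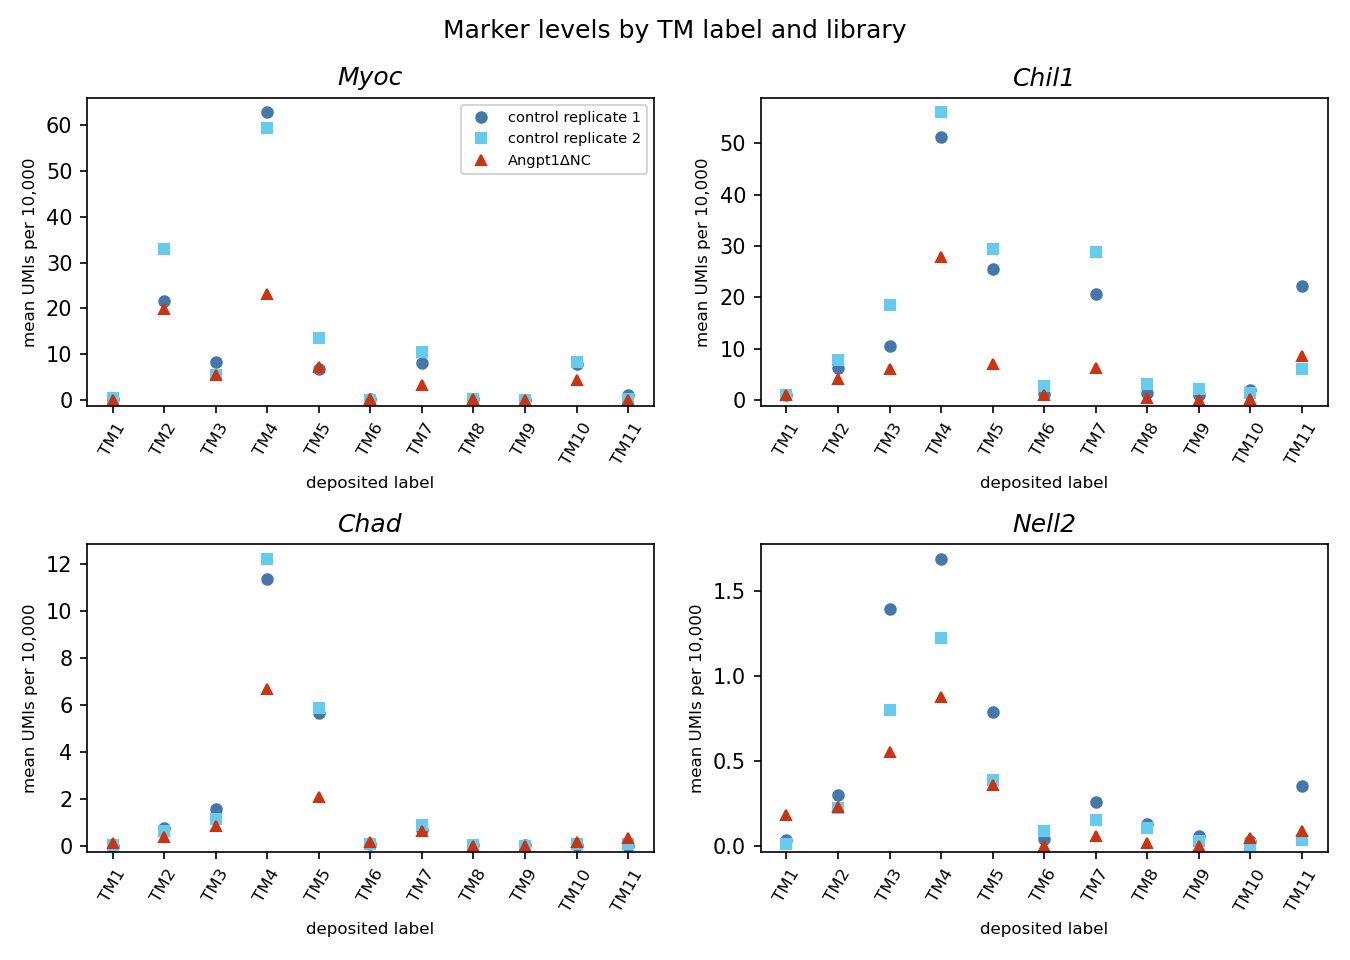
Mean level of *Myoc*, *Chil1*, *Chad* and *Nell2* (UMIs per 10,000, vertical axes) in each of the labels TM1 to TM11 (horizontal axes). Each point is 1 library (circles and squares, controls; triangles, *Angpt1*ΔNC), and in every library TM4 holds the highest point for all 4 genes, with *Myoc* at 62.8, 59.4 and 23.2.

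The label was not uniform in these genes. All 4 were detected together in 43.7, 42.7 and 23.8% of TM4 cells, and 0, 3 and 16 cells had none of them. The median cell had 41.8, 38.6 and 6.31 *Myoc* UMIs per 10,000, while the tenth of cells with the most held 37.2, 34.7 and 52.8% of all *Myoc* UMIs, so a minority of cells carried a large part of the transcript, more so in *Angpt1*ΔNC. Across the cells of a library, Pearson's r of *Myoc* with *Chil1* was 0.366, 0.411 and 0.264 (n = 286, 330 and 311 cells). *Myoc* ran with *Chad* at 0.349, 0.434 and 0.236 and against the corneal and scleral proteoglycan *Lum* at -0.368, -0.183 and -0.256. *Fmod*, which encodes the collagen-binding proteoglycan fibromodulin, varied apart from *Myoc*, with r of -0.0179, -0.0443 and -0.0169, and ran with the matrix protein gene *Svep1* at 0.354, 0.377 and 0.36. These values describe cells that share a library and differ in depth.

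Beyond the naming genes, the transcripts with the largest fold of TM4 over the other cells of TM1 to TM11 included those of secreted and matrix proteins. *1500015O10Rik*, also known as *Ecrg4*, which encodes a secreted peptide precursor, had 49.3, 59.6 and 46.5 UMIs per 10,000 and at least 8.25 times the mean of these other cells in every library. *Comp*, cartilage oligomeric matrix protein, had 2.39, 3.36 and 7.88 and at least 7.89 times that mean. *Tnmd*, which encodes the tendon membrane protein tenomodulin, had 18.1, 20.8 and 14.6 and at least 5.81 times. In TM3 alone *Tnmd* was at 15.7, 14.1 and 4.63, so its control level there was near that of TM4. The retinoic acid degrading enzyme *Cyp26b1* reached 1.498, 1.70 and 4.86. The secreted Wnt modulator *Sfrp2* reached 10.0, 10.5 and 13.2, and *Ltbp2*, a latent TGF-beta binding protein whose loss causes glaucoma with small or displaced lenses in people, reached 5.30, 5.48 and 3.67. The proteoglycan osteomodulin (*Omd*) had 3.35, 4.42 and 5.89. *Fmod* was at 22.5, 22.2 and 40.98, beside 22.9, 19.6 and 22.4 in TM3 and 33.3, 34.1 and 32.7 in TM5, so its level was shared with these groups in the controls. By abundance alone, the controls' TM4 cells were led by *Cst3*, the protease inhibitor cystatin C, at 236, 248 and 147, and by the collagen-binding proteoglycan decorin (*Dcn*) at 178, 203 and 353. A cluster against the cells it was separated from is no test, and none of these genes is called particular to TM4.

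Markers of other cell types were near 0 for most types. Summed over 7 genes each, endothelial markers gave 0.118, 0.179 and 0.156 UMIs per 10,000 and glial markers 0.469, 0.569 and 0.544, and 6 T cell markers gave 0.0805, 0.107 and 0.0912. Other lists were not near 0, and their sums differed between the genotypes. The 6 pericyte markers summed to 9.39, 6.78 and 1.18, of which *Rgs5*, a regulator of G protein signaling, made up 8.54, 5.72 and 0.236, while *Higd1b* had no UMI in any of the 927 cells (which allows up to 0.324% of cells with a UMI) and *Kcnj8* and *Abcc9* lay under 0.1. Without *Rgs5* the pericyte sum was 0.853, 1.05 and 0.945, the sum of genes that moved both ways, with *Cspg4* at 0.579, 0.756 and 0.839 and *Notch3* at 0.192, 0.241 and 0.0830. The 7 markers of CD34-positive fibroblasts summed to 9.93, 9.96 and 2.67, with *Mfap5* the most abundant at 4.84, 4.61 and 1.25. *Pi16* was at 4.12, 4.43 and 0.663. Not all genes of this list were lower, with *Ly6a* at 0.449, 0.294 and 0.530 and *Clec3b* at 0.0748, 0.283 and 0.110. The 6 smooth muscle markers summed to 15.7, 13.4 and 8.02, with *Acta2* at 8.95, 6.53 and 4.94 and *Tagln* at 6.64, 6.79 and 3.02. *Actg2* was at 0, and *Myh11*, *Cnn1* and *Des* lay under 0.1 in every library. Hemoglobin transcripts summed to 15.2, 5.31 and 0.315 over 4 genes, led by *Hbb-bs* at 8.71, 3.84 and 0.216, although 9.44, 5.76 and 17.0% of cells had a *Hbb-bs* UMI, so few control cells carried most of it. The 7 keratocyte markers summed to 24.9, 30.1 and 43.1, of which *Lum* was 18.7, 21.5 and 37.9. Without *Lum* they came to 6.16, 8.66 and 5.26, so the genes of the list moved both ways, with *Aldh3a1* higher at 1.73, 1.97 and 2.85 and *Angptl7* lower at 2.57, 3.98 and 1.20. The 7 corneal endothelium markers summed to 8.07, 8.49 and 12.8, and to 4.28, 5.10 and 6.71 without their most abundant gene *Col8a2* at 3.79, 3.39 and 6.04. The part of these transcripts in the genotype differences was not tested beyond leaving out the cells that carried them.

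The targeted gene *Angpt1* (ENSMUSG00000022309, chromosome 15, 42424723 to 42676977, build GRCm38) was counted 431, 410 and 1 times in TM4. At least 1 UMI was found in 176 of 286, 191 of 330 and 1 of 311 cells, or 61.5, 57.9 and 0.322%. The exact 95% intervals of these shares were 55.6 to 67.2% and 52.3 to 63.3% in the controls and 0.00814 to 1.78% in *Angpt1*ΔNC. In the epithelium the share was 0.303, 0.494 and 0%, the last of which, from 0 of 911 cells, allows up to 0.329% of cells with a UMI. A difference between the *Angpt1*ΔNC share in TM4 and that in epithelium was not detectable at this depth. With every cell thinned to 2000 UMIs, the controls' shares were 23.5 and 24.5%. The mean level was 1.83, 1.44 and 0.00425 UMIs per 10,000, and both controls lay far above *Angpt1*ΔNC. From the pooled counts, the controls had 452 times the *Angpt1* of *Angpt1*ΔNC, with a counting interval from 80.9 to 17867 that rests on 1 UMI (edgeR adjusted p = 1.17e-08). The call held in 9 of 9 alternative analyses.

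TM4 made up 10.2% of the cells of TM1 to TM11 in control replicate 1 (286 of 2803, exact 95% interval 9.11 to 11.4), 9.93% in control replicate 2 (330 of 3324, 8.93 to 10.99) and 15.98% in *Angpt1*ΔNC (311 of 1946, 14.4 to 17.7). Of all kept cells the shares were 3.15, 3.25 and 4.59%. No difference in cell number is read from these shares, since genes that set the label differed between the genotypes and the *Angpt1*ΔNC group is 1 library.

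To ask which genes differed between genotypes within TM4, the counts of its cells were summed per library and tested with edgeR over 10430 genes. *Angpt1*ΔNC cells carried less *Angpt1*, *Rgs5*, *Edn3*, *Myoc*, *Ccl2* and *Cxcl1* RNA and more decorin, lumican, stromelysin (*Mmp3*) and pleiotrophin (*Ptn*) RNA than the cells of either control. At an adjusted p under 0.05, 680 genes (6.52%) were called, 298 higher in *Angpt1*ΔNC (2.86%) and 382 lower (3.66%), and the median log2 change over all genes was -0.01. Of these, 442 had a log2 change over 1 in size and a level outside both controls. The fit rests on 1 residual degree of freedom and takes the lone *Angpt1*ΔNC library to vary like the controls, and the number of calls moved with the analysis. DESeq2 called 161 genes, equal numbers of cells from each library gave 19 calls in 1 draw and 189 in another, thinning to 2000 UMIs gave 391 and leaving out cells with RNA of other cell types gave 206. Genes called below are therefore given with the number of alternative analyses, of up to 9, in which the call held, and a gene that was not called is not shown to be equal between genotypes. Levels in the sections on genotype are CPM, the summed TM4 counts of a gene scaled by edgeR to the library's summed depth, and changes are log2 of *Angpt1*ΔNC over control with their standard error (SE).

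*Myoc* (ENSMUSG00000026697, chromosome 1, 162639155 to 162649693) was at 6336, 6256 and 2429.8 CPM and fell by 1.37 on the log2 scale (SE 0.18, edgeR adjusted p = 0.000172, held in 8 of 9). *Chil1* was at 5147, 6243 and 2989.6 CPM and changed by -0.93 (adjusted p = 0.00683 in edgeR, held in 6 of 9). *Chad*, at 1145, 1281 and 699 CPM, changed by -0.80 (edgeR adjusted p = 0.0214, 6 of 9). *Nell2*, at 175, 127 and 92.2, was not called at -0.71 (edgeR adjusted p = 0.0822). In male-typed cells *Nell2* was called, at -1.32. The *Angpt1*ΔNC value was the lowest of the 3 libraries for all 4 genes. Lower levels were not limited to TM4. *Chil1* was at 25.6, 29.5 and 7.11 UMIs per 10,000 in TM5 and 20.6, 28.8 and 6.26 in TM7. Over the 4 genes, where tested, the median log2 change was -0.86 in TM4 and -0.77, -1.05 and -1.34 in TM3, TM5 and TM7. Since these genes also helped to set which cells are TM4, their levels over all TM1 to TM11 cells are given too, where the division into TM1 to TM11 plays no part. There, *Myoc* was at 12.2, 14.6 and 8.57 UMIs per 10,000, *Chil1* at 12.9, 16.7 and 6.92, *Chad* at 1.65, 1.82 and 1.43 and *Nell2* at 0.417, 0.297 and 0.263, again lowest in *Angpt1*ΔNC for each gene. These means also carry the make-up of TM1 to TM11, which differed between the genotypes (TM7, with much *Chil1*, was 23.8, 22.2 and 8.94% of these cells and TM9 7.28, 8.97 and 16.8%), so a change in level and a change in composition cannot be told apart in them. Within TM4 the *Myoc* mean of male-typed cells was 65.7, 61.7 and 16.6, and that of the female-typed cells of *Angpt1*ΔNC was 31.6.

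Among the 12 genes lower in *Angpt1*ΔNC with the smallest adjusted p, *Angpt1* was joined by regulators and secreted proteins. *Rgs5* (ENSMUSG00000026678, chromosome 1, 169655501 to 169695813) was at 848, 605 and 32.6 CPM and fell by 4.48 (SE 0.29, edgeR adjusted p = 9.56e-08, held in 9 of 9). It was found in 51.0, 42.7 and 5.47% of TM4 cells, against 2.43, 3.56 and 0.878% of epithelial cells. *Edn3* (ENSMUSG00000027524, chromosome 2, 174760619 to 174784042), which encodes the peptide endothelin 3, was at 165, 159 and 16.1 CPM and fell by 3.33 (SE 0.25, adjusted p = 4.19e-07 in edgeR, 9 of 9). *Gpc3*, a heparan sulfate proteoglycan of the cell surface, was at 161, 215 and 21.4 (change -3.14, 8 of 9). *Rbp4*, the carrier of retinol, was at 69.7, 104 and 6.66 (change -3.70, 7 of 9). *Mmp12*, macrophage elastase, was at 68.1, 59.1 and 8.41 (change -2.91, 8 of 8). For each of these 5 genes both controls lay above *Angpt1*ΔNC, which the choice of the 12 genes required. *BC023719* was counted 97, 108 and 0 times, so it was at least 36.7-fold lower with 3 counts as the floor over the *Angpt1*ΔNC group (held in 8 of 9).

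The other 5 of these 12 genes are unnamed gene models or members of near-identical pairs, between whose copies read assignment could split the counts, and their changes are uncertain. *Gm10260* was at 275, 357 and 1.75 CPM (held in 9 of 9), *Gm11361* at 66.9, 58.1 and 2.45 (9 of 9) and *Gm10320* at 47.6, 70.9 and 1.75 (8 of 9). The complement protease gene *C1rb* was at 86.2, 99.2 and 0.701 CPM (2 UMIs in *Angpt1*ΔNC, control ratio 136, interval 37.4 to 1125, held in 9 of 9), and its neighbor copy *C1ra* was at 80.3, 58.4 and 202 (8 of 9). *C1s2* was at 50.01, 47.0 and 0.701 (2 UMIs, ratio 70.6, interval 19.4 to 586, held in 8 of 9), and *C1s1* at 128, 86.8 and 228 (7 of 9). In both pairs 1 copy was higher and the other lower in *Angpt1*ΔNC. Added within a pair, *C1ra* and *C1rb* came to 167, 158 and 203 CPM and *C1s1* and *C1s2* to 178, 134 and 228. The same opposite movement was seen for the interleukin 11 receptor gene *Il11ra1* (ENSMUSG00000073889, chromosome 4, 41699989 to 41769474) at 132, 144 and 953 CPM and for *Gm13305* (ENSMUSG00000073876, chromosome 4, 42158842 to 42168603) at 1098, 1278 and 507 (7 of 9), whose sum was 1230.2, 1422 and 1460.1. The sums were chosen after the single values had been seen.

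*Il11ra1*, with a change of 2.79 (9 of 9), also had the smallest adjusted p of the genes higher in *Angpt1*ΔNC outside the sex-linked ones. The interferon-induced *Ifi27l2a* was at 18.5, 16.6 and 119.5 CPM (change 2.77, SE 0.20, edgeR adjusted p = 2.79e-07, held in 8 of 9). *Ptx4*, of the pentraxin family, rose from few counts, at 5.91, 3.11 and 71.9 (change 4.01, held in 9 of 9, 4.38 against control replicate 2 alone and 3.53 against control replicate 1 alone). *Cyp2f2*, a cytochrome P450 enzyme, was at 29.5, 63.9 and 677 (3.84, 8 of 9), with 3.40 and 4.51 against the same controls. The controls of these last 2 genes were themselves apart, and *Angpt1*ΔNC lay above both, as the choice of genes required. *Mmp3*, the matrix-degrading enzyme stromelysin 1, was at 487, 429.6 and 1637 (1.84, SE 0.18, edgeR adjusted p = 9.75e-06, 9 of 9). *Emb*, a membrane glycoprotein, was at 344, 305 and 1306 (2.01, 9 of 9). *Gpx3*, a secreted glutathione peroxidase, was at 24.4, 31.8 and 108 (1.93, 7 of 9).

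The remaining genes of the 12 were a noncoding RNA, a nuclear factor and genes with little RNA in the controls. *Rmst*, a long noncoding RNA, was at 10.2, 17.3 and 92.5 CPM (2.73, 9 of 9), with 2.40 against control replicate 2 alone and 3.14 against control replicate 1 alone. *Znhit6*, a factor in the assembly of small nucleolar particles, was at 36.6, 36.3 and 157 (2.11, 9 of 9). *AY036118* was at 48.8, 69.8 and 268 (2.17, 7 of 9). *Cnmd*, encoding the cartilage protein chondromodulin, was at 1.58, 14.9 and 135 (3.97, 7 of 9), and the control that was taken decided its size, at 3.15 against control replicate 2 and 6.13 against control replicate 1. *C1ql2*, a secreted protein of the C1q family, was counted 1, 0 and 71 times, a ratio of 132 with an interval from 23.0 to 5293 that rests on 1 control UMI (held in 5 of 6). That all 12 lay above both controls was a condition of their choice and is no result.

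**Figure D2:**
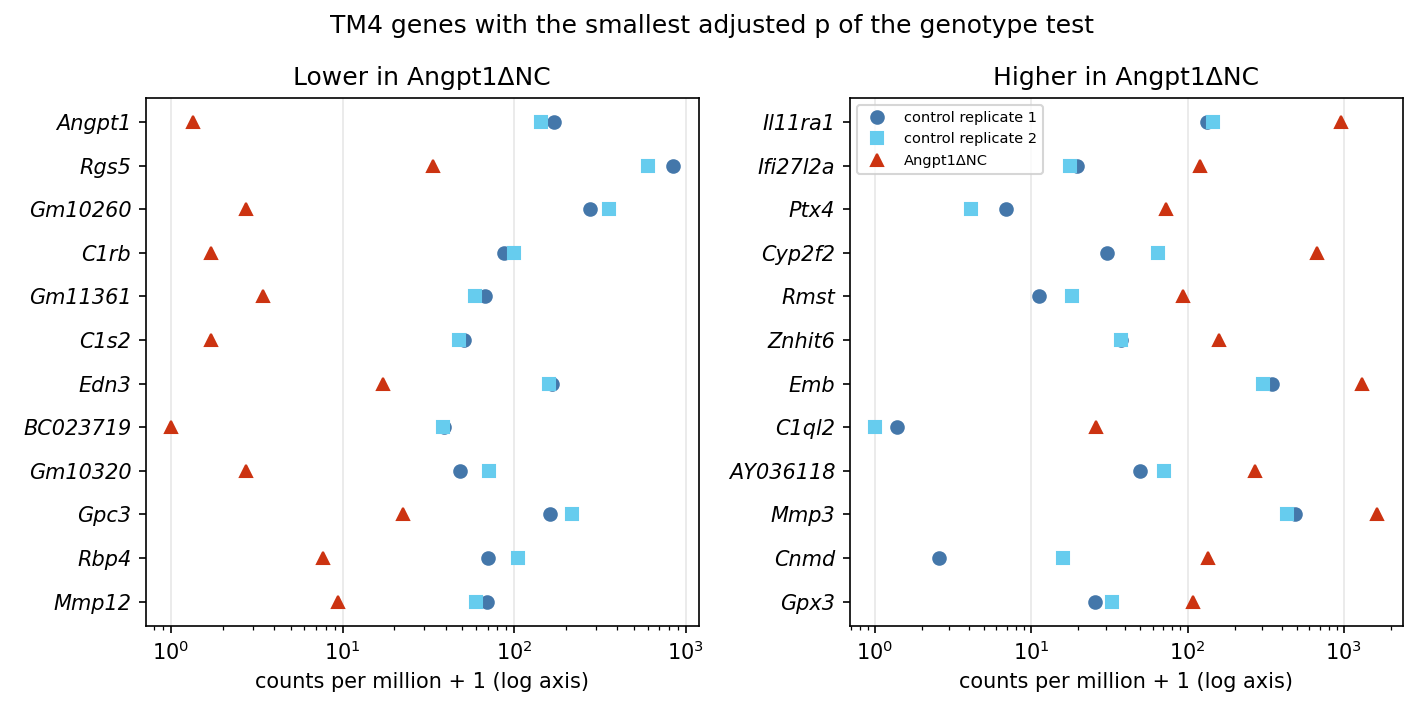
Level of the 24 genes with the smallest adjusted p in each direction, sex-linked genes apart, in CPM of the summed TM4 counts with 1 added (log axis). Each point is 1 library (circles and squares for controls, triangles for *Angpt1*ΔNC). Genes were chosen to have the *Angpt1*ΔNC point outside both controls, as for *Rgs5* at 848, 605 and 32.6.

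Some genes for the matrix that these cells secrete changed. Counts by list of calls between genotypes in TM4, here and below, are to be read beside the 6.52% called over all genes. Of 13 tested small leucine-rich proteoglycans and relatives (of 16 listed), 3 rose and 1 fell, with a median log2 change of 0.26. *Dcn* was at 17534, 20959 and 36103 CPM (0.91, edgeR adjusted p = 0.00258, held in 6 of 9), *Fmod* at 2248, 2389 and 4209.6 (0.86, 7 of 9) and lumican (*Lum*) at 1763, 2119.8 and 3766 (0.96, 7 of 9), and the gene that fell was *Chad*. Both controls lay below *Angpt1*ΔNC in the 3 genes that rose, and *Lum* is also the keratocyte marker given above. Among 22 tested collagens 2 rose and 3 fell (median -0.01), namely *Col6a3* (0.97, 6 of 9) and *Col8a2* (0.73, 5 of 9) higher and the fibril-associated *Col14a1* (-1.23, 8 of 9), *Col12a1* (-0.69, 4 of 9) and *Col11a1* (-1.08, 7 of 9) lower. *Col8a2* was also the most abundant of the corneal endothelium markers, whose sum was higher in *Angpt1*ΔNC, and their part in its change was not tested. Collagen processing enzymes gave 1 higher and 0 lower of 19 (median 0.08), the higher being *Fkbp9* (0.73, 6 of 9). Elastic fiber genes gave 2 higher and 1 lower of 20 (median -0.03). In that list *Ltbp1* was at 53.2, 61.5 and 135 CPM (1.24, 7 of 9) and *Fbln2* at 31.9, 36.6 and 75.4 (1.13, 6 of 9), while the microfibril protein gene *Mfap5* was at 472, 483 and 128 (-1.90, held in 8 of 9), and is also the most abundant of the CD34-positive fibroblast markers, whose sum was lower in *Angpt1*ΔNC. In male-typed cells *Col12a1* was no longer called, at -0.42. *Fbln2* turned to -0.054 when cells with RNA of other cell types were left out.

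Matricellular proteins, which tune how cells attach to matrix, gave 2 higher and 2 lower of 19 (median 0.25). *Comp* was at 261, 366 and 876 CPM (1.48, SE 0.21, edgeR adjusted p = 0.000272, held in 8 of 9) and *Matn4* at 208, 262 and 450.5 (0.94, 6 of 9). Its relative *Thbs4*, a thrombospondin of tendon, moved the other way, at 334, 301 and 77.1 (-2.04, 8 of 9), and *Sparcl1* fell by 1.28 with its call held in 2 of 8 and lost in male-typed cells (-0.83). Neither *Tnc* (0.25) nor *Svep1* (0.37) was called, nor was *Sparc* (0.50), which was called in male-typed cells at 0.67. Of 12 tendon genes 8 were not called, while *Fmod* and *Comp* were higher and *Chad* and *Thbs4* lower (median -0.03). Of 17 metalloproteinases and inhibitors 3 rose and 4 fell (median -0.16), in a list that left out *Mmp12*, which fell. Besides *Mmp3*, the gelatinase *Mmp2* was at 119, 126 and 266 CPM (1.12, 8 of 9) and the serine protease *Htra1* at 492, 501 and 892 (0.84, 6 of 9). The inhibitor *Timp1* was lower at 1158, 1212 and 635 (-0.90, 6 of 9), as were the proteoglycan-cleaving *Adamts4* (-1.56, 5 of 7), *Adamts5* (-1.26, 5 of 9) and *Adamts9* (-1.64, 2 of 7, not called in male-typed cells at -1.58).

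Retinoic acid genes changed on both sides of the pathway, 2 higher and 4 lower of 14 (median -0.08). *Aldh1a1*, which makes retinoic acid, was at 30.3, 33.9 and 84.8 CPM (1.40, held in 7 of 9). The degrading enzyme *Cyp26b1* was at 146, 178 and 485 (1.58, edgeR adjusted p = 9.31e-05, 8 of 9), and its relative *Cyp26a1* moved the other way at 446, 276 and 116 (-1.63, 7 of 9). *Crabp2*, which carries retinoic acid in the cell, was at 189, 128 and 48.0 (-1.72, 7 of 9). *Cyp1b1*, whose loss causes primary congenital glaucoma in people, was at 146, 145 and 65.2 (-1.16, SE 0.21, edgeR adjusted p = 0.00241, 8 of 9). No group overlapped with the other in these 5 genes, and *Rbp4* was the remaining gene that fell.

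Of 27 tested genes in a list of glaucoma genes made for this report, 0 rose and 5 fell (median -0.07). The list left out genes that the study relates to glaucoma or eye pressure, among them *Dcn* and *Ltbp1*, which rose, and *Col12a1*, which fell. The 5 that fell were *Angpt1*, *Myoc*, *Cyp1b1*, *Angptl7* and *Gmds*. *Angptl7*, a secreted protein of the cornea and meshwork, was at 277, 447 and 130.4 CPM (-1.47, held in 6 of 9), with the controls themselves apart. *Gmds* was at 52.8, 35.6 and 19.98 (-1.14, 4 of 9). The transcription factor gene *Foxc1*, at 56.7, 78.1 and 86.9, was not called (0.36), nor was *Ltbp2* (-0.48). Among 26 genes for angiopoietins and other ligands that act on vessels, 1 rose and 4 fell (median 0.08). *Angpt4*, another ligand of TEK, was at 43.3, 39.7 and 12.6 (-1.71, 6 of 8), and placental growth factor (*Pgf*) at 123, 78.1 and 17.5 (-2.51, SE 0.29, edgeR adjusted p = 4.94e-05, 8 of 9). *Sema3e* was higher on few counts (2, 5 and 21 UMIs, held in 1 of 5 and not in male-typed cells). *Vegfa*, at 189.8, 267 and 256 CPM, and *Vegfc*, at 22.4, 23.8 and 27.0, were not called (0.16 and 0.22).

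Other genes that the study names for TM1 to TM11 were mostly not called. The cell surface protein gene *Cd34* was at 42.5, 34.6 and 10.5 CPM (-1.87, edgeR adjusted p = 0.000641, held in 8 of 9). It is itself among the CD34-positive fibroblast markers, whose sum was lower. Its difference from TM3, TM5 and TM7 was -2.27 (held in 3 of 5), but 0.36 when all other TM groups were taken. *Clec3b* had controls on both sides of *Angpt1*ΔNC, at 5.91, 31.8 and 11.6 CPM, and no call (-0.74). *Pdgfrb*, a receptor of mural and stromal cells, was at 109, 104 and 141 (0.41) and the semaphorin and VEGF co-receptor *Nrp2* at 133, 149 and 166 (0.23). Neither passed the test, nor did *Fmo2* (0.69), *Cdh2* (0.17), *C2* (-0.84) or *Cfb* (-0.48), and *Cxcl5* had too few counts to be tested.

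Several chemokine and cytokine genes fell. Of 25 tested complement and chemokine genes 4 rose and 8 fell, with a median of -0.48. The chemokine genes *Ccl2* and *Cxcl1*, which draw monocytes and neutrophils, were at 1259, 1231 and 394 CPM (-1.66, SE 0.20, edgeR adjusted p = 6.71e-05) and 473, 595 and 99.6 (-2.42, SE 0.24, edgeR adjusted p = 8.13e-06), each held in 8 of 9. *Ccl7* was at 275, 534 and 92.5 (-2.13, 6 of 9) and the cytokine *Il6* at 66.9, 159.7 and 16.5 (-2.79, 5 of 8). The controls were apart in *Ccl7* and *Il6*, with changes of -2.52 and -3.25 against control replicate 2 alone and -1.56 and -1.99 against control replicate 1 alone. *Il33* (22, 25 and 1 UMIs, control ratio 25.2, interval 4.32 to 1018, held in 2 of 5) and *Ccl11* (26, 13 and 1 UMIs, ratio 20.95, interval 3.55 to 849, held in 2 of 5) were sparse, and neither was called in male-typed cells. The C1 inhibitor gene *Serping1* was at 593, 737 and 1121 (0.75, 6 of 9), while *C1ra*, *C1s1*, *C1rb* and *C1s2* are the uncertain copies described above. Interferon-stimulated genes gave 6 higher and 0 lower of 22 (median 0.37). *Ifit3* was at 16.9, 21.8 and 76.1 (1.96, 6 of 9) and *Mndal* at 1.18, 3.11 and 28.4 (3.66, 5 of 7), but in male-typed cells *Ifit3*, *Ifit1* and *Ifi203* were no longer called (log2 0.50, 0.21 and 1.02) and *Bst2* turned to -0.13. Over the alternatives their calls held in 6 of 9, 2 of 9, 3 of 7 and 4 of 9, in this order.

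Growth factor carriers moved in opposite directions. Of 9 IGF genes, 2 rose and 2 fell (median -0.01), and 1 of those that rose was the serine protease gene *Htra1* given above. *Igfbp2* was at 2877, 3863 and 9389.5 CPM (1.48, edgeR adjusted p = 0.000100, held in 8 of 9), whereas *Igfbp4* was at 2715, 2082 and 1049.6 (-1.19, 8 of 9) and *Igfbp3* at 83.5, 116 and 28.4 (-1.82, 7 of 9). TGF-beta and BMP genes gave 0 higher and 3 lower of 23 (median -0.08), among them the activin inhibitor *Fst* (-1.38, held in 5 of 9, -1.70 and -0.95 against control replicates 2 and 1). Wnt genes gave 2 higher and 0 lower of 11 (median 0.39), *Nkd2* (0.94, 5 of 9) and the sparse *Dkk1* (2, 6 and 26 UMIs, 3 of 6). Contraction genes gave 1 higher and 3 lower of 20 (median -0.18). The actin-binding *Tagln* was at 625, 748 and 322 (-1.09, 6 of 8), tropomyosin 1 (*Tpm1*) at 942, 813 and 436 (-1.01, 7 of 9) and the myosin light chain *Myl9* at 372, 340.1 and 182 (-0.96, 6 of 9). *Tagln* is also 1 of the smooth muscle markers whose sum was lower in *Angpt1*ΔNC. The stretch-gated channel gene *Kcnk2* rose (1.52, 4 of 9).

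Other gene groups gave from 0 to 3 calls each. Glucocorticoid response genes gave 2 higher and 1 lower of 15 (median 0.10), of which *Cebpd*, a transcription factor of acute responses, was at 1539, 1649 and 489 CPM (-1.71, held in 8 of 9). Prostaglandin genes gave 0 higher and 3 lower of 13 (median -0.02), and genes of the unfolded protein response 2 higher and 1 lower of 21 (median -0.05). Lysosome and phagocytosis genes gave 2 higher and 1 lower of 19 (median 0.19). The growth arrest ligand *Gas6* was higher at 881, 1046 and 1661 (0.79, 7 of 9) and *Cst3* lower at 22974, 25613 and 15343 (-0.66, held in 3 of 9, and -0.41 and not called in male-typed cells). Cholesterol and fatty acid synthesis had 0 calls by edgeR and 0 by DESeq2 among 19 genes (median 0.02). The same was true of 9 cell cycle genes (median -0.12) and 20 genes that tissue dissociation induces (median 0.05). At an unadjusted p under 0.05 in edgeR, these 3 lists held 3, 0 and 4 genes, beside 2024 of all 10430 genes. Of 5 sex-linked genes *Xist* was higher (8 of 8) and *Eif2s3y* lower (2 of 8, median -0.56), the genes by which cells were typed, and in male-typed cells *Eif2s3y* was at -0.10 and not called. Among abundant genes outside the lists, the membrane protein gene *Tm4sf1* was at 8154, 7263 and 4419 (-0.80, 7 of 9) and the mitochondrial *mt-Co3* at 4269, 6618 and 9797 (0.85, 5 of 9), while the share of mitochondrial UMIs was itself higher in *Angpt1*ΔNC.

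Whether a genotype difference in TM4 differed from that in its neighbors was tested directly against the mean difference in TM3, TM5 and TM7, which are some of the groups that the study relates to the meshwork. TM11, which it also relates to the meshwork, was left out of this set, and with TM11 added 93 genes were called in place of 163. These groups come from the same 3 libraries, so their values stand side by side and are not separate evidence. In *Angpt1*ΔNC, female-typed cells were 46.0% of TM4 and 69.8, 62.7 and 71.8% of TM3, TM5 and TM7. The Y-linked *Ddx3y* was called above 0 in this test. No alternative of this test used male-typed cells, so the part of sex in its calls was not tested. The labels were set from expression, so for a gene that helped to part TM4 from a neighbor the labelling alone can make such a difference. Genes called in this test are given with the number of alternatives, of 5, in which the call held. In TM4 the chemokine genes *Ccl2* and *Cxcl1*, the endothelin gene *Edn3* and *Mfap5* had a change below the mean of these neighbors, and *Ptn*, *Apod* and *Gas1* had a change above it. Of 10504 genes 163 (1.55%) were called by edgeR, 95 with a difference above 0 (0.904%) and 68 below 0 (0.647%), with a median of 0.05 over all genes. *Angpt1* was not called (-1.66, edgeR adjusted p = 1.00), with 1 UMI left in TM4. *Rgs5* was not called either (-2.83, adjusted p = 0.109 in edgeR), nor was *Myoc* (-0.52, 0.424).

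*Ccl2* changed by -1.66 in TM4 and by 0.34, 1.53 and -0.26 in TM3, TM5 and TM7, a difference of -2.16 (SE 0.12, edgeR adjusted p = 2.74e-09, held in 5 of 5). *Cxcl1* changed by -2.42 against 0.05, -0.01 and -0.70 (difference -2.18, SE 0.26, adjusted p = 0.000167 in edgeR, 5 of 5). Both chemokine genes thus fell in TM4, while the *Ccl2* value lay above 0 in TM3 and TM5, for which no call is given here. *Edn3* changed by -3.33 against 0.03, -0.59 and -1.52 (difference -2.59, SE 0.35, 5 of 5). *Mfap5* changed by -1.90 against 1.06, -0.15 and -0.83 (difference -1.89, 5 of 5), and the part of fibroblast RNA in this was not tested. The transcription factor gene *Nfkb1* changed by -1.23 (held in 8 of 9) against -0.20, 0.56 and -0.36 (difference -1.19, 5 of 5). The cytokine gene *Il11*, at 126, 279 and 64.5 CPM (called in TM4, 6 of 9), had controls that differed from each other, and its difference was -1.65 (4 of 5), with TM4 changes of -2.11 and -0.95 against control replicates 2 and 1 alone.

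In the other direction, the growth factor gene *Ptn* changed by 1.62 (held in 8 of 9) in TM4 and by -0.60, -0.07 and 0.90 in TM3, TM5 and TM7 (difference 1.57, SE 0.19, edgeR adjusted p = 0.000226, held in 5 of 5). *Apod*, the lipid carrier apolipoprotein D, changed by 2.03 (held in 8 of 9) against 0.80, 0.30 and 1.16 (difference 1.33, SE 0.17, 5 of 5). *Gas1*, a membrane protein that binds hedgehog ligands, changed by 1.01 (held in 6 of 9) against -0.06, -0.42 and -0.80 (difference 1.48, 5 of 5). *Znhit6* changed by 2.11 against 0.33, 0.01 and 0.94 (difference 1.72, 5 of 5). The transcription factor gene *Klf2* was not called within TM4 (0.63, but called at 1.02 in male-typed cells), yet its difference of 1.47 was (5 of 5), beside changes of -0.56, -1.24 and -0.60 in the neighbors. *Gm13305*, uncertain as a near copy, had a value below 0 in all 4 groups, smallest in size in TM4 (-1.23 against -3.03, -2.14 and -2.83, difference 1.48, 5 of 5). In male-typed cells its TM4 change was -0.40 and was not called.

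**Figure D3:**
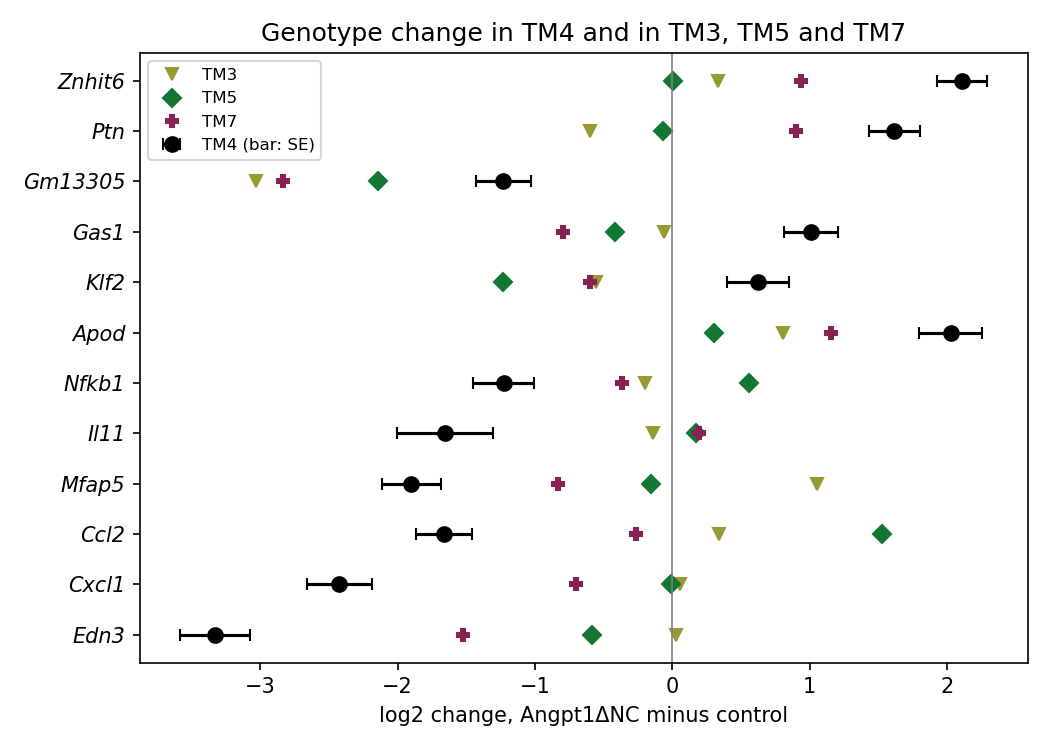
Log2 change of *Angpt1*ΔNC over control (horizontal axis) in TM4 (circles, bars show the SE) and in TM3, TM5 and TM7 (other symbols) for the 12 genes named for the test of the difference. *Ccl2* lies at -1.66 in TM4 and at 0.34, 1.53 and -0.26 in the other groups.

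Over all genes 0.904% were called above 0 and 0.647% below 0 in this test. Its counts by list are to be read beside these shares. By list, dissociation stress genes gave 6 of 20 above 0 and 0 below (*Fos*, *Fosb*, *Atf3*, *Dusp1*, *Hspa1b* and *Socs3*, held in 2 of 5, 4 of 5, 2 of 5, 2 of 5, 4 of 5 and 2 of 5), with a median of 0.52 beside 0.05 over all genes. Their median log2 change was 0.05 in TM4 and -0.51, -0.22 and -0.70 in TM3, TM5 and TM7, so the median lay below 0 in the 3 neighbors and near 0 in TM4. Matricellular genes gave 4 above and 1 below of 19 (median 0.31), and complement and chemokine genes 2 above and 5 below of 26 (median -0.15). Collagens gave 0 above and 1 below of 22 (median 0.12).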

How the data were processed

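The authors aligned the droplet libraries with Cell Ranger (2.1.1 in the processing notes, 3.0.2 in the file headers) to build mm10 and deposited raw UMI counts of 31053 genes for every called cell. Cell labels came from the authors' tables, made with Seurat 3.1.3 after filters of 200 genes, 1000 UMIs and 10% mitochondrial UMIs and removal of doublets with scDblFinder, which left 9076, 10160 and 6772 cells. In a recount 10008, 11349 and 7254 cells passed these filters, 1 control cell more than the authors state. The 3467 gene columns of integrated values in those tables were not used. Barcodes labelled TM4 were matched to the counts of the 3 libraries. A level is the mean, over cells, of a gene's UMIs in 10,000, and shares carry exact 95% Clopper-Pearson intervals, which cover counting error only. Summed counts were tested with edgeR 4.0.16 in R 4.3.3 (TMM factors, filter on low counts, quasi-likelihood F-test, Benjamini-Hochberg over all genes, adjusted p under 0.05), with 2 control libraries against 1. The difference of effects used 12 sums, with library as a block and 3 residual degrees of freedom, and alternatives with TM5 alone, all other TM groups or TM11 added. The genotype test had 9 alternatives that gave a p-value. Of these, 1 each were DESeq2 1.42.0, RLE size factors, no filter on low counts, thinning to 2000 UMIs and male-typed cells. The others were 2 draws of equal cells and 2 filters that left out cells with RNA of other types. The second draw and the narrower filter were added after results had been seen. Leaving out each control gave fold changes only and is not among the 9. Both fits were tested on simulated data. Positions come from GENCODE M21. Python 3.11.15, numpy 2.4.6, scipy 1.17.1, pandas 2.3.3 and matplotlib 3.10.9 were used.

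Named genes are the label's markers, genes the study names, the 15 most abundant in the controls' TM4, the 20 with the largest fold over other cells of TM1 to TM11 (0.1 added to means, at least 0.25 of cells positive), and the 12 higher and 12 lower with the smallest adjusted p past a log2 change of 1 and outside both controls, sex-linked genes apart. The difference of effects gave 6 and 6 by the same rule, and members of 25 lists were added. Members and lists were chosen with earlier results of these data known.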

Additional observations from a re-analysis of the deposited data

Results flagged for a closer look

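The 36 genes named here had a genotype difference in TM4 that differed from the mean of those in TM3, TM5 and TM7 in the edgeR test of that difference at an adjusted p under 0.05. Values are log2, TM4 minus the mean of the others, each with the number of 5 alternatives in which the call held, and all groups come from the same 3 libraries. Of the genes that name or fill the label, *Chil1* (0.73, 3 of 5), *Cst3* (-0.54, 3 of 5), *Dcn* (0.45, 4 of 5), *Tm4sf1* (-0.46, 5 of 5) and *Sparc* (0.58, 4 of 5) differed, but the label was set from such genes, *Chil1* among them, so the labelling alone can make such differences and nothing is read from them. Of genes that the study names, *Clec3b* (-1.64, 2 of 5), *Cd34* (-2.27, 3 of 5) and *Cyp1b1* (-1.25, 4 of 5) did. The controls of *Clec3b* lay on both sides of *Angpt1*ΔNC in TM4, and the *Cd34* value turned to 0.36 against all other TM groups. *Cd34* was near the floor in TM3, and its level was lower in *Angpt1*ΔNC in TM7 too. With cells thinned to equal depth, *Cyp1b1* in UMIs per 10,000 was lower in *Angpt1*ΔNC in TM7, TM8 and TM9 too. It was at 3.87, 4.65 and 2.12 in TM7, 3.81, 3.99 and 1.18 in TM8 and 1.78, 2.33 and 0.353 in TM9. In TM3 and TM5 it was higher, at 1.16, 0.986 and 1.43 and at 0.278, 0.433 and 0.645. It was also higher in TM1 and TM2, where it was sparse. The lower *Cyp1b1* level was thus not limited to TM4. Among the genes with the smallest adjusted p between genotypes these were *Cyp2f2* (1.63, 4 of 5), *Znhit6* (1.72, 5 of 5) and *Emb* (0.98, 3 of 5) above 0 and *Edn3* (-2.59, 5 of 5), *Gpc3* (-1.66, 3 of 5) and *Mmp12* (-2.10, 2 of 5) below 0, the last at 0.065 against TM5 alone. Those chosen for the test itself were *Gm13305* (1.48, 5 of 5), *Gas1* (1.48, 5 of 5), *Ptn* (1.57, 5 of 5), *Apod* (1.33, 5 of 5) and *Klf2* (1.47, 5 of 5) above 0 and *Ccl2* (-2.16, 5 of 5), *Cxcl1* (-2.18, 5 of 5), *Il11* (-1.65, 4 of 5), *Mfap5* (-1.89, 5 of 5) and *Nfkb1* (-1.19, 5 of 5) below 0. Matrix genes of the lists were *Lum* (0.84, 5 of 5), *Fkbp9* (0.68, 3 of 5), *Fbln2* (1.15, 5 of 5) and *Thbs4* (-1.55, 3 of 5). Other list members above 0 were *Aldh1a1* (1.37, 5 of 5), *Tsc22d3* (0.87, 2 of 5), *Serping1* (0.65, 3 of 5) and *Gas6* (0.79, 5 of 5), and those below 0 were *Ccl7* (-2.39, 5 of 5), *Il6* (-2.46, 3 of 5), *Tagln* (-1.80, 2 of 5) and *Tpm1* (-0.84, 4 of 5).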

How the results depend on the processing

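The genotype difference in TM4 was called for 680 genes, a count that became 161 with DESeq2, 391 with cells thinned to 2000 UMIs, 206 of 3662 with cells holding RNA of other cell types left out (32, 31 and 29 cells stayed), and 19 with equal numbers of cells. A second draw of equal numbers, chosen after the first count had been seen, gave 189. Of the 680 genes, 161, 311, 126, 19 and 189 were called again in the same direction under these analyses. RLE size factors (654), no filter on low counts (953), male-typed cells (509) and a narrower version of the filter on other cell types, chosen after seeing the data (601), stayed within 1.5 times. edgeR's prior degrees of freedom were 15.1 with all cells, 3.96 and 5.43 in the draws of equal cells, and infinite with thinning and both filters on other cell types. The cause of the changes in count was not tested. Against each control alone 679 of the 680 genes kept their sign. The 163 genes of the difference of effects became 311 with no filter on low counts and 93 with TM11 (27, 46 and 49 cells) added to TM3, TM5 and TM7, a choice made after the results had been seen. They were 147 against TM5 alone, 169 against all other TM groups and 167 with RLE. Of 56 named genes called in that test, 32 stayed called against TM5 alone, 33 against all other TM groups, 25 with TM11 added and 53 with RLE. Without control replicate 1 or 2 the value moved by more than the control spread in 15 and 21 genes of 115.

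The ratio of the TM4 share in *Angpt1*ΔNC to the controls was 1.59, 1.44 of all kept cells and 1.77 without TM1, TM2 and TM10. *Angpt1* in TM4 fell to 23.5 and 24.5% of control cells at 2000 UMIs, since thinning removes UMIs. Turned in direction were *Hspa1a* (-1.27) and *Fbln2* (-0.054) without cells holding RNA of other types and *Bst2* (-0.13) in male-typed cells. The difference of effects turned for *Cd34* (0.36) against all other TM groups, for *Jag1* (0.687) with TM11 added, and for *Cilp2* (1.00), *Ptx4* (2.50) and *Mmp12* (0.065) against TM5 alone. Leaving out a control left no residual degree of freedom, so only fold changes were obtained, and the planned pooled fit could not be made. Of 109 named genes called between genotypes, 17 stayed called with equal cells, 58 in the second draw of equal cells, and 68 of 100 with DESeq2. No paired analysis was possible because the pools were separate animals.

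The single *Angpt1*ΔNC library sets the limit of every genotype test, and genes with few UMIs in TM4 have wide counting intervals.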

Other observations

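Some transcripts were sparse in TM4 beside the mean of the other cells of TM1 to TM11, and also in TM3 or TM5. The eosinophil chemokine gene *Ccl11* was at 12.2, 8.33 and 1.58 UMIs per 10,000 in those other cells, at 0.0881, 0.0407 and 0.00318 in TM4 and at 0.0179, 0.0115 and 0 in TM3. *Cxcl12*, a chemokine of stromal niches, was at 5.20, 6.09 and 5.72 in the other cells, 0.656, 0.597 and 0.442 in TM4 and 0.120, 0.135 and 0.193 in TM5. The ubiquitin-like interferon product *Isg15* was at 19.6, 13.1 and 13.1, 2.08, 2.105 and 1.503 and 0.816, 0.265 and 0.951 in the same groups. The low levels were thus not limited to TM4. Clusters were made from such genes, and no test was made of these levels.

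*Rgs5* was uneven among control TM4 cells. It was detected in 51.0 and 42.7% of the cells of the control replicates, and the tenth of cells with the most held 49.2 and 61.8% of its UMIs. Cells with more *Rgs5* had less *Lum*, with Pearson's r of -0.426, -0.44 and -0.138 over 286, 330 and 311 cells, and less *Fmod* in the controls, with -0.285, -0.338 and -0.0861.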
